A study of Rattus norvegicus with 18 samples.

Results

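The genes described here are small bowel genes of nutrient uptake (Slc5a1, Slc2a2, Apob and Fabp1) and of segment identity (Gata4 and Pdx1), followed across 18 rat intestinal libraries. They were named by Ensembl ID and chromosome, and an ID on another chromosome was to be dropped. Of the 6 IDs, 5 are among the 30562 genes of the table and each lies on the chromosome given, so 5 genes are described. Slc2a2 (ENSRNOG00000008875), the basolateral glucose transporter GLUT2, was not analysed here.

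The libraries came from wild type Sprague-Dawley rats, an outbred laboratory stock kept free of specific pathogens. Control rats (6 libraries) were untreated, irradiated rats (6 libraries) received 10 Gy of X-rays once, and irradiated plus formula rats (6 libraries, also written formula 1 to 6) received the same irradiation and then Changbing Formula. The labels name the tissue as intestine only, with no segment, age, sex, interval after irradiation, irradiated field or composition of the formula, and the free-text descriptions call all 18 libraries untreated, against the titles and treatment fields of 12. In bulk tissue, fewer cells of a type and less RNA per cell cannot be told apart.

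Absorptive enterocytes of the small bowel take up sugars through transporters in the brush border and export dietary fat in chylomicrons. These programmes are strongest in the upper and middle small bowel and weak or absent in the large bowel, and some of the genes are also used in liver, kidney or pancreas. Transcription factors mark position along the tube: Pdx1 is kept on in the duodenum and pancreas, and Gata4 in the duodenum and jejunum but not in the ileum or large bowel.

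In mRatBN7.2, the build of the counts, Slc5a1 (ENSRNOG00000017775) lies at chr14:77553843-77618547 on the reverse strand and Apob (ENSRNOG00000005542) at chr6:30844368-30892497 on the forward strand. Fabp1 (ENSRNOG00000006675) lies at chr4:103191006-103194788 on the forward strand. Gata4 (ENSRNOG00000010708) lies at chr15:37459601-37505636 and Pdx1 (ENSRNOG00000046458) at chr12:7757865-7763064, each on the reverse strand. The 5 genes thus share no neighbourhood. RefSeq, on the later build GRCr8, places all 5 symbols on the same chromosomes. The gene models differ between the sources, with spans of 64705 bases in the table and 64590 in RefSeq for Slc5a1, 48130 and 39597 for Apob, 3783 and 8818 for Fabp1, and 46036 and 71681 for Gata4, while Pdx1 spans 5200 bases in each. The RefSeq start of Fabp1, used for the stretch printed next, may therefore not be the start of the model that was counted.

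Slc5a1 and Fabp1 were highest in the same libraries, while among the rest Slc5a1 tended to be lower where Fabp1 was higher. That relation did not withstand leaving out some single libraries. The 250 bases before the RefSeq start of each gene are shown for this contrast, with no link to it tested. They come from GRCr8, at chr14:81843085-81843334 (reverse strand) for Slc5a1 and chr4:104749090-104749339 (forward strand) for Fabp1, and are written 5′ to 3′ with motif matches in capitals.
Slc5a1: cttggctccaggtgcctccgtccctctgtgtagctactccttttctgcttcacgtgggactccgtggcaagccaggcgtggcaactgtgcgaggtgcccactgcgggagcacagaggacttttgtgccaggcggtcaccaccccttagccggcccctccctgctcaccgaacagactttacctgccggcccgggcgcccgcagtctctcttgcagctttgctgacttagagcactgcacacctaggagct
Fabp1: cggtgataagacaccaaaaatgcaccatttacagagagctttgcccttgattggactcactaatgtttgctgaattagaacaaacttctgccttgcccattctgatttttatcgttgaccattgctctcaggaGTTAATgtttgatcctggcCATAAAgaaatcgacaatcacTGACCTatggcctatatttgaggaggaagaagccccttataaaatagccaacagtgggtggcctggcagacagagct
Exact matches were sought on both strands to AGATAA (bound by GATA factors), GTTAAT (the core of HNF1 sites), TTTATG (CDX factors) and AGGTCA (the core hexamer of nuclear receptor sites). Variants of these sites were not sought, so a stretch without a match may still hold a site of that factor. The Fabp1 stretch held GTTAAT forward at 117 to 112 bases before the start, TTTATG in reverse at 98 to 93 and AGGTCA in reverse at 77 to 72, with no overlap between them. The Slc5a1 stretch held none of the 4, and neither did the 250 bases before the RefSeq start of Pdx1, which are not shown. No promoters of Apob and Gata4 were at hand. Of 33469 RefSeq promoters of this length, 10.3% held AGATAA, 6.45% GTTAAT, 11.4% TTTATG and 14.1% AGGTCA. The G and C bases made up 62.8% of the Slc5a1 stretch and 43.2% of the Fabp1 stretch, against a median of 51.2% over all promoters. A match describes letters only and was not tested as a binding site.

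Levels are given as CPM, counts scaled to the library total and by TMM factors, which adjust for differences in composition between libraries. Library totals were 33598572 to 48398184 counts, and genes of the mitochondrial chromosome took 5.77% to 39.7% of them. In control 2 and irradiated 1, the libraries that stood apart for these genes, the totals were 38138777 and 37225766 counts. The mitochondrial shares of this pair were 9.30% and 16.5%, both toward the low end. Irradiated 4 had the lowest mitochondrial share. It and control 2 also had the lowest sample weights in limma-voom, 0.119 and 0.178, which measure how far a library departs across all genes.

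Apob separated the libraries most sharply. It encodes apolipoprotein B, the structural protein of chylomicrons. In control libraries 1 to 6 it stood at 2.91, 1460, 4.16, 3.28, 6.99 and 1.88 CPM. In irradiated libraries 1 to 6 it stood at 1976, 5.42, 2.64, 10.99, 8.78 and 8.03 CPM. With the formula it stood at 9.38, 1.39, 5.32, 2.41, 10.8 and 0.28 CPM. Control 2 and irradiated 1 thus lay far above all the others, which overlapped across the 3 groups. Relative to the median of the other 16 libraries, 4.74 CPM, control 2 was 308-fold and irradiated 1 was 417-fold higher. The lower of these 2 libraries was 133 times the highest of the other 16, irradiated 4. Of the 14367 genes whose mean reached 1 CPM, 48 (0.334%) were at least 10 times higher in both libraries than in any other. Apob ranked 5 by that ratio, Slc5a1 56 and Fabp1 320, the last 2 outside those 48. The mean was taken over all 18 libraries, so the high pair alone can carry it.

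Slc5a1 showed the same high pair over a higher floor. It encodes SGLT1, the sodium-coupled cotransporter that brings glucose and galactose across the brush border. Control libraries 1 to 6 stood at 14.5, 497, 13.7, 7.75, 60.5 and 42.5 CPM. Irradiated libraries 1 to 6 stood at 517, 35.7, 18.2, 6.64, 4.57 and 7.85 CPM. The levels with the formula were 16.3, 9.09, 11.1, 13.1, 24.4 and 27.8 CPM. The same pair was again the highest, and the remaining control, irradiated and formula libraries overlapped. The median of the other 16 was 14.1 CPM, which control 2 exceeded 35.3-fold and irradiated 1 36.8-fold. The highest of the 16 was control 5, and the lower of the high pair was 8.22 times that library.

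Fabp1 did not follow this division. It encodes the liver-type fatty acid-binding protein, which carries fatty acids in the cytoplasm of enterocytes and is also made in liver. Control libraries 1 to 6 stood at 23.1, 2077, 11.6, 541, 2.49 and 5.25 CPM. Irradiated libraries 1 to 6 stood at 2458, 3.46, 14.9, 5.53, 428 and 1666 CPM. With the formula they stood at 118, 33.6, 891, 104, 169 and 1.71 CPM. That pair was the highest here too, but control 2 was only 1.25 times irradiated 6, and formula 3, control 4 and irradiated 5 followed at 428 to 891 CPM. Among the 16 other libraries the highest was 976 times the lowest, against 13.3 times for Slc5a1 and 39.9 times for Apob. High Fabp1 therefore occurred in 4 libraries where Apob was at most 8.78 CPM.

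**Figure D1:**
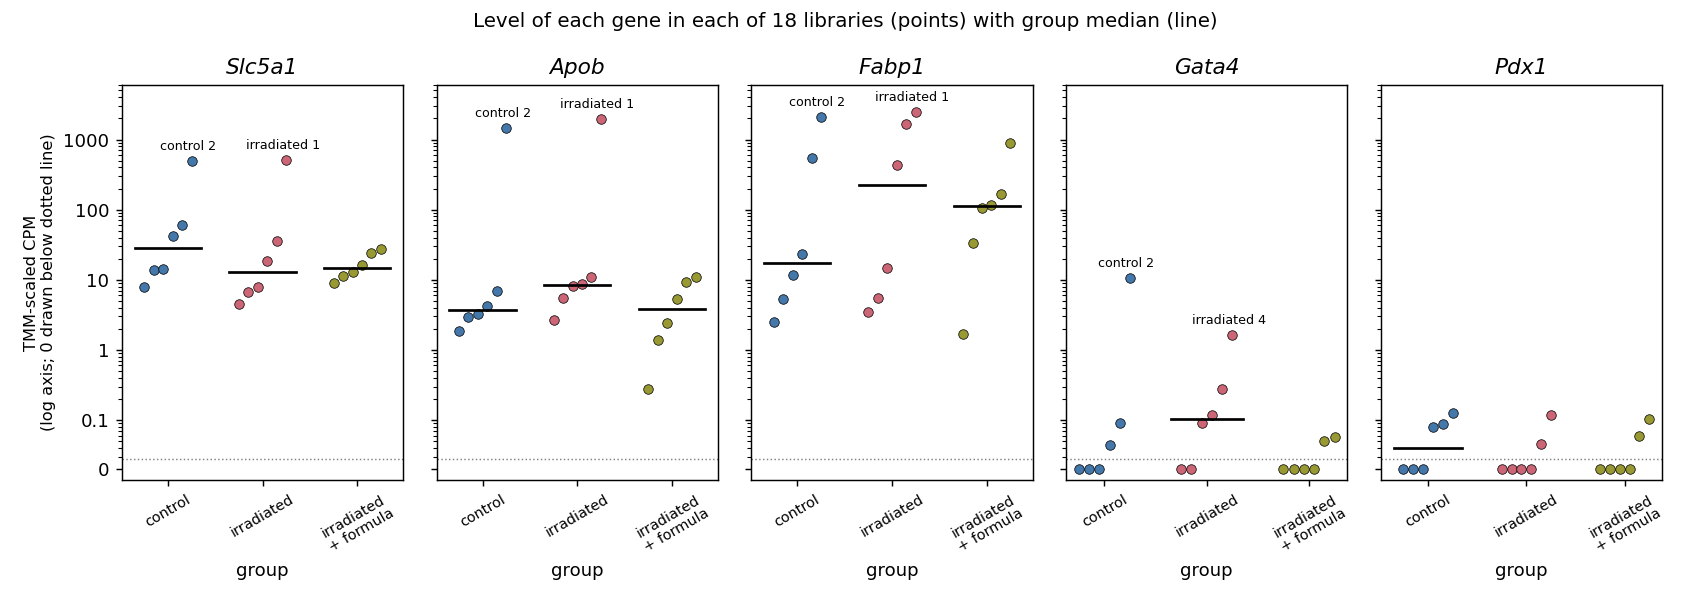
Level of each gene (TMM-scaled CPM, log axis, counts of 0 drawn below the dotted line) in the 6 libraries of each group, with the group median as a line where it lies above that line. Control 2 and irradiated 1 stand at 1460 and 1976 CPM for Apob, where the other 16 libraries lie between 0.28 and 10.99 CPM, while Fabp1 spreads from 1.71 to 1666 CPM in those 16.

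Gata4, the zinc-finger factor of the upper and middle small bowel, split the high pair. Control 2 held 477 counts, or 10.5 CPM, with an exact 95% binomial interval of 9.60 to 11.5 CPM. Irradiated 1 held 4 counts, or 0.12 CPM, with an interval of 0.032 to 0.299 CPM. The library second in level was irradiated 4, with 90 counts or 1.64 CPM (interval 1.32 to 2.02 CPM), although its Apob and Slc5a1 were at 10.99 and 6.64 CPM. Irradiated 3 held 12 counts, or 0.27 CPM. Of the other 14 libraries, 9 held 0 counts and none held more than 4. A count of 0 allows up to 3 counts, which is 0.0547 to 0.105 CPM depending on the library. These limits and intervals cover counting error only, and they are too narrow because most fragments were counted as 2 reads.

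Pdx1, the homeobox factor of duodenum and pancreas, was at the floor in all 18 libraries. It held 0 counts in 11 libraries and at most 4 in the other 7, and its highest level was 0.13 CPM in control 6. Control 2 held 4 counts (0.088 CPM) and irradiated 1 held 4 (0.12 CPM), no more than control 1 and control 6 did. Expression above 0.13 CPM was not detected at this depth in any group.

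Levels of different genes were compared per kilobase of exon, since Apob has 15392 exonic bases in the annotation and Fabp1 495. On that scale (CPM per kb) control 2 held Fabp1 at 4197, Slc5a1 at 174, Apob at 94.8 and Gata4 at 3.18. Irradiated 1 held Fabp1 at 4966, Slc5a1 at 181, Apob at 128 and Gata4 at 0.035. Slc5a1 was 1.84 times Apob in control 2 and 1.41 times in irradiated 1, while in the other 16 libraries it was 2.80 to 545 times Apob. Fabp1 was 24.1 and 27.4 times Slc5a1 in the high pair, a ratio that ran from 0.237 in control 5 to 1224 in irradiated 6 among the rest. The high pair thus had similar proportions of the 3 uptake genes, and the other libraries did not share a common proportion.

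Among the 16 other libraries, Slc5a1 tended to be lower where Fabp1 was higher, in a relation that did not withstand leaving out some single libraries. Correlations were computed on log2 CPM within these 16 only, since the high pair forms a cluster of its own. The permutations over the 16 ignored group, so differences between groups can enter these values. Slc5a1 and Fabp1 had a Pearson r of -0.65 (permutation p = 0.007, adjusted p = 0.021 over 3 pairs) and a Spearman rho of -0.66 (permutation p = 0.007, adjusted p = 0.021). Without control 5 and irradiated 5, the libraries farthest from the median of Slc5a1, r was -0.55 (permutation p = 0.046, adjusted p = 0.138), which ended the adjusted call. Leaving out either alone also ended the call for Pearson's r (permutation, adjusted p = 0.06 without control 5 and 0.051 without irradiated 5). The call for Spearman's rho was lost without control 5 or control 6 (permutation, adjusted p = 0.063 each), without irradiated 2 (0.06) and without formula 6 (0.057), and it stood at 0.048 without irradiated 5. Apob and Fabp1 had an r of 0.41 (permutation p = 0.12, adjusted p = 0.18) and a rho of 0.31 (permutation p = 0.24, adjusted p = 0.36). The r was 0.21 (permutation p = 0.45) without formula 2 and formula 6. Slc5a1 and Apob had an r of -0.24 (permutation p = 0.37, adjusted p = 0.37) and a rho of -0.24 (permutation p = 0.36, adjusted p = 0.36). The r was -0.31 (permutation p = 0.28) without control 5 and irradiated 5. Within the formula group alone, no pair passed the adjusted threshold. There Slc5a1 and Fabp1 had an r of -0.49 (exact permutation p = 0.34, adjusted p = 0.51, n = 6) and a rho of -0.20 (exact permutation p = 0.71, adjusted p = 0.92). Apob and Fabp1 had the strongest relation in that group, with an r of 0.86 (exact permutation p = 0.029, adjusted p = 0.087) and a rho of 0.83 (exact permutation p = 0.058, adjusted p = 0.174). Slc5a1 and Apob had an r of -0.15 (exact permutation p = 0.8, adjusted p = 0.8) and a rho of 0.086 (exact permutation p = 0.92, adjusted p = 0.92). No correlation was computed within the control or the irradiated group, which hold 5 libraries each without the high pair. Irradiated 4 was low for both genes, with 6.64 CPM of Slc5a1 and 5.53 CPM of Fabp1, and without it r was -0.78 (permutation, adjusted p = 0.0018).

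**Figure D2:**
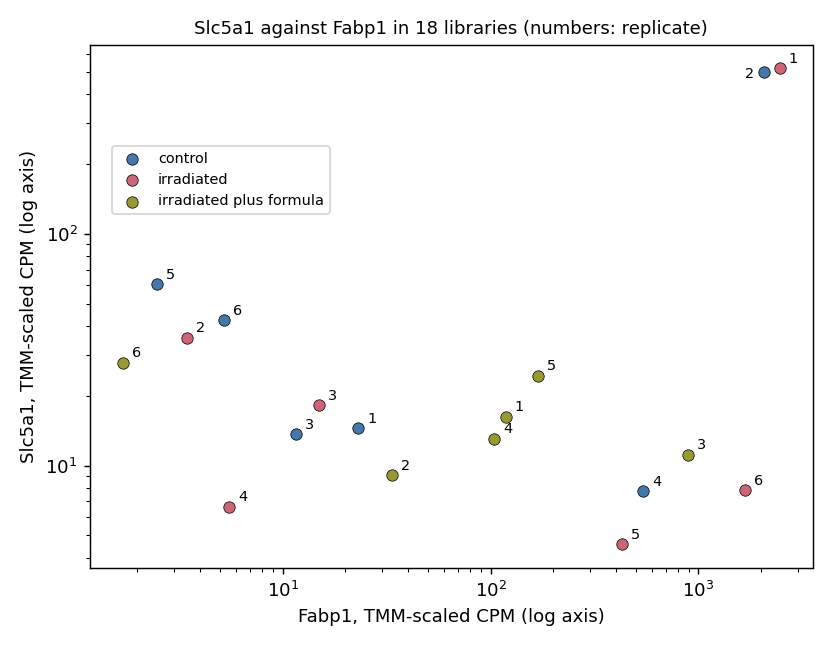
Slc5a1 against Fabp1 (TMM-scaled CPM, log axes) in the 18 libraries, coloured by group and numbered by replicate. Control 2 and irradiated 1 lie alone at the upper right, and the other 16 run downward from control 5 to irradiated 6 with irradiated 4 below them (Pearson r = -0.65 on log2 CPM, n = 16).

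The group comparisons asked whether irradiation, or the formula after it, changed these genes. For Apob the control mean was 246 ± 594 CPM, the irradiated mean 335 ± 804 CPM and the formula mean 4.93 ± 4.36 CPM (SD, n = 6). A single library held 98.7% of the control sum and another held 98.2% of the irradiated sum. The medians were 3.72, 8.40 and 3.87 CPM. For Slc5a1 the means were 106 ± 193, 98.4 ± 206 and 16.95 ± 7.54 CPM (SD, n = 6) in the same order, and the medians 28.5, 13.05 and 14.7 CPM. For Fabp1 the means were 443 ± 828, 763 ± 1050 and 220 ± 334 CPM (SD, n = 6), with medians of 17.3, 222 and 111 CPM. Means and medians ordered the groups differently for each of these 3 genes, and every pair of groups overlapped.

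Of the 5 genes, 3 had enough counts to be tested, and Gata4 and Pdx1 did not pass the filter. None of the 3 passed an adjusted p of 0.05 in edgeR's quasi-likelihood test in any comparison. Over all 16593 genes tested, 0% passed between irradiated and control, 0% between irradiated plus formula and irradiated, and 0.0121% between irradiated plus formula and control, so 0 of 3 members is near the background. At an unadjusted p below 0.05 there were 321, 928 and 948 genes in the 3 comparisons. Among the members these were Apob between irradiated plus formula and irradiated (edgeR unadjusted p = 0.0145), and Apob and Slc5a1 between irradiated plus formula and control (edgeR unadjusted p = 0.0197 and 0.0436).

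Between irradiated and control, the log2 fold changes were -0.11 for Slc5a1, 0.44 for Apob and 0.78 for Fabp1 (SE 1.14, 1.80 and 1.66; edgeR adjusted p = 0.998 for each). The approximate 95% interval for Apob ran from -3.08 to 3.97, so changes of several fold in either direction were not excluded. Each group holds 1 library of the high pair here, and leaving out either alone moved the value strongly. Without control 2 the Apob value was 6.44 (edgeR adjusted p = 0.388), and without irradiated 1 it was -5.10 (edgeR adjusted p = 0.990). Slc5a1 stood at 1.83 without control 2 (edgeR adjusted p = 0.454) and -2.86 without irradiated 1 (edgeR adjusted p = 0.990). Fabp1 stood at 2.71 without control 2 (edgeR adjusted p = 0.497) and -0.062 without irradiated 1 (edgeR adjusted p = 0.997). With both left out the values were -0.93 for Slc5a1, 0.90 for Apob and 1.86 for Fabp1 (edgeR adjusted p = 0.513, 0.576 and 0.656).

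Between irradiated plus formula and irradiated, the log2 fold changes were -2.54 for Slc5a1, -6.09 for Apob and -1.80 for Fabp1 (SE 1.21, 2.24 and 1.70; edgeR adjusted p = 0.770, 0.770 and 0.803). Without irradiated 1 they were 0.22, -0.54 and -0.95 (edgeR adjusted p = 0.955, 0.932 and 0.894). The low formula values of Apob and Slc5a1 were therefore set against a mean carried by 1 irradiated library. Without irradiated 1 and control 2, the 5 irradiated libraries averaged 7.17 ± 3.22 CPM of Apob and 14.6 ± 12.9 CPM of Slc5a1 (SD, n = 5), against 4.93 and 16.95 CPM with the formula.

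Between irradiated plus formula and control, the log2 fold changes were -2.64 for Slc5a1, -5.64 for Apob and -1.01 for Fabp1 (SE 1.22, 2.20 and 1.67; edgeR adjusted p = 0.865, 0.845 and 0.934). Without control 2 they were -0.71, 0.36 and 0.91 (edgeR adjusted p = 0.949, 0.990 and 0.966), so the sign turned for Apob and Fabp1. The 5 other control libraries averaged 3.85 ± 1.94 CPM of Apob, 27.8 ± 22.7 CPM of Slc5a1 and 117 ± 237 CPM of Fabp1 (SD, n = 5). Each comparison shares a group with the others, so they are not independent. The medians over all tested genes were 0.0089, -0.025 and -0.067 in the order given.

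**Figure D3:**
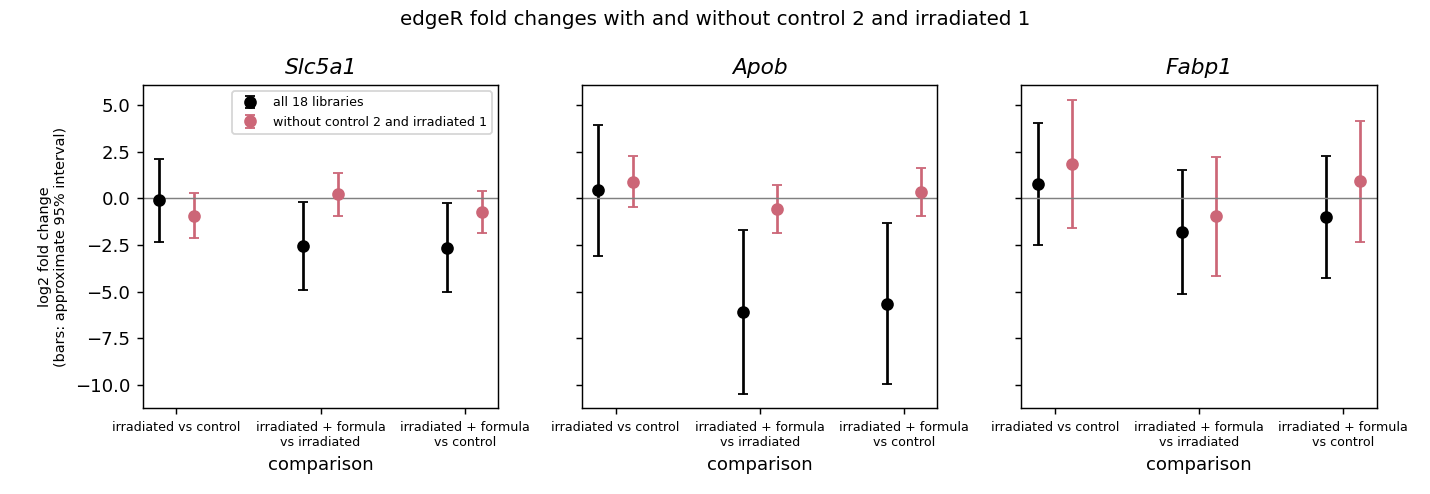
edgeR log2 fold changes of Slc5a1, Apob and Fabp1 (vertical axis, bars are approximate 95% intervals) in the 3 comparisons, from all 18 libraries (black) and without control 2 and irradiated 1 (red). The Apob value between irradiated plus formula and irradiated goes from -6.09 to -0.54, and that between irradiated plus formula and control from -5.64 to 0.36.

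The likeness of other genes was measured as Pearson r on log2 CPM over all 18 libraries, among the genes whose mean reached 1 CPM. It is a description only, since control 2 and irradiated 1 dominate it. The gene most like Apob was ENSRNOG00000020704 (chr1:207236557-207252737, reverse strand, mRatBN7.2; r = 0.95), at 59.4 CPM in control 2, 88.1 CPM in irradiated 1 and 4.35 to 15.1 CPM elsewhere. The gene most like Fabp1 was ENSRNOG00000008167 (chr15:16859738-16906985, reverse strand; r = 0.93), at 93.3, 130 and 23.5 to 111 CPM. The table does not pair either ID with a symbol. Among the members, Apob had an r of 0.74 with Slc5a1 and 0.62 with Fabp1, while Slc5a1 and Fabp1 had 0.17.

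A possible further mark of the small bowel can be set beside these genes. Paneth cells, at the base of small bowel crypts, make α-defensins. A run of 7 neighbouring genes at chr16:70349567-70590626 (mRatBN7.2) was taken as an α-defensin cluster when the gene sets were drawn up, although the files give no symbols for it. The run was chosen for its high level in control 2, where it summed to 2291 CPM. It summed to 2010 CPM in irradiated 1, to 439 CPM in irradiated 4 and to between 0 and 5.97 CPM in the other 15 libraries. The level in control 2 was fixed by the choice of the run and says nothing further. Irradiated 1 was high for the run as for Apob. Irradiated 4 was high for the run with Apob at 10.99 CPM and Gata4 at 1.64 CPM.

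**Figure D4:**
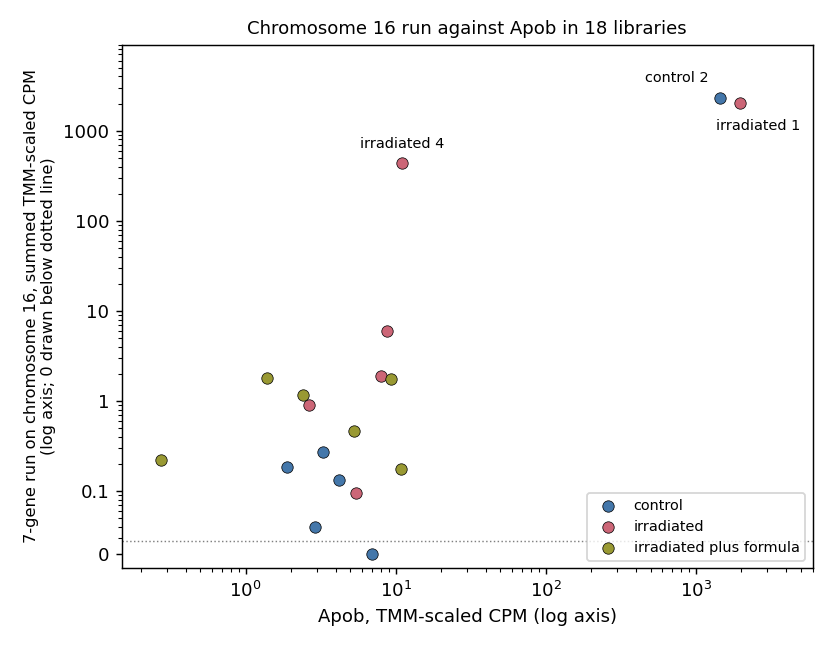
Summed level of the 7-gene run on chromosome 16 against Apob (TMM-scaled CPM, log axes, 0 drawn below the dotted line) in the 18 libraries by group. Control 2, for whose high level over the median library the run was chosen, and irradiated 1 are high on both axes. Irradiated 4 holds 439 CPM of the run with 10.99 CPM of Apob, and the other 15 libraries are at or below 5.97 CPM of the run.

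The 16 libraries with little Apob were not alike. Fabp1 ran from 1.71 to 1666 CPM among them, and irradiated 4 held 439 CPM of the chromosome 16 run. Whether any of them was large bowel, or small bowel with fewer enterocytes, was not tested. No large bowel gene could be read by name in this table.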

How the data were processed

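Poly(A)-selected RNA of rat intestinal tissue was sequenced in 18 libraries, which were grouped by their titles. The deposited table holds raw counts. Per the file headers, featureCounts 2.1.1 assigned paired-end reads aligned to mRatBN7.2 to the genes of Ensembl release 110. No option for strand or for counting pairs was set, and 66.9% to 74.6% of the counts below 40 were even, so most fragments count as 2 reads. Reads of a gene and of one overlapping it on the other strand were therefore not separated. The submitters' processing notes also name STAR, SAMtools, fastp and FastQC, whose versions are not given in the sources used here. All libraries carry the same batch label, and 0 columns were left unused. The gene table at hand pairs 0 Ensembl IDs with symbols, so the wider lists of enterocyte, segment, large bowel and other marker genes could not be used, and the symbols of the 6 genes are those given with their IDs.

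Counts were tested in R 4.3.3 with edgeR 4.0.16 (filterByExpr, TMM, quasi-likelihood test) in a single model of all 18 libraries, with Benjamini-Hochberg adjustment over 16593 genes. The procedure was tested on simulated counts drawn independently for each gene. Those counts hold no library that stands apart across many genes, so the test does not cover the effect of control 2 and irradiated 1. SEs were derived from the F statistic, and intervals are approximate. Correlations used log2 CPM (prior count 2) with 100000 two-sided permutations, or all orders for 6 libraries, in scipy 1.17.1. The genes described are the 6 given, whatever their values, with, for likeness, the 2 other genes of highest r. Genes, lists and tests were chosen with earlier results of these data known. All 153 pairs of libraries differed by more than sampling noise (lowest median chi-square 6.36). The p-values measure the spread between libraries, which are separate rats only as far as the labels imply. Alternatives were other scalings and filters, DESeq2 1.42.0, limma-voom (limma 3.58.1) with quality weights, models of the 12 libraries compared, a replicate block, no mitochondrial genes, and libraries left out.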

Additional observations from a re-analysis of the deposited data

Results flagged for a closer look

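Within groups of 6, libraries were checked for a highest or lowest value, on the log2 scale, whose gap to its neighbour exceeds Dixon's 95% critical value. Of 11 checks on Slc5a1, Apob, Fabp1 and Gata4, 3 found one, where chance gives about 0.55 for normal values. The libraries recur, so the checks are not independent. Gata4 held 0 counts in 3 control libraries, and the checks were chosen with earlier results of these data known. The number found is therefore a description and no test against chance. Apob stood at 1460 CPM in control 2, where the other 5 control libraries lay between 1.88 and 6.99 CPM. It stood at 1976 CPM in irradiated 1, where the other 5 irradiated libraries lay between 2.64 and 10.99 CPM. Gata4 stood at 10.5 CPM in control 2, against at most 0.091 CPM in the other control libraries. The part of the tissue segment in these values was not tested.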

How the results depend on the processing

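No member passed the threshold under any of the 30 alternatives in any comparison. The lowest adjusted p over 9 fold changes was 0.385, and DESeq2 gave 6 values no adjusted p (Slc5a1 and Apob in each comparison). Leaving out control 2 and irradiated 1 together, and each library of the correlations in turn, was chosen after seeing the data. Of 270 values, 21 turned their sign. Between irradiated plus formula and irradiated, Slc5a1 turned from -2.54 to 0.023 with limma-voom, 0.017 without control 2, irradiated 1 and irradiated 4, and 0.21 without the first 2 of these. Between irradiated plus formula and control, Apob turned from -5.64 to 0.39, 0.38 and 0.36 and Fabp1 from -1.01 to 2.13, 0.92 and 0.91 in those settings, and Fabp1 to 0.60 with the replicate block. Leaving out 1 library each gave, between irradiated and control, -2.86 to 1.83 for Slc5a1, -5.10 to 6.44 for Apob and -0.062 to 2.71 for Fabp1. Between irradiated plus formula and irradiated the ranges were -2.87 to 0.22, -6.48 to -0.54 and -3.16 to -0.95. Between irradiated plus formula and control they were -2.89 to -0.71, -6.03 to 0.36 and -2.37 to 0.91. Over the whole table, the 2 genes past the threshold for irradiated plus formula against control became 47 with DESeq2, 499 with limma-voom, 6 with 12 libraries, 1 with the replicate block, 7 without control 2, irradiated 1 and irradiated 4, 4 without the first 2 of these, and 2 to 5 with 1 library left out (5 without control 2 or irradiated 4, 4 without irradiated 1). DESeq2 called 8 between irradiated plus formula and irradiated. The cause was not tested. Replicate numbers did not pair the libraries: correlations of same-numbered libraries ran from -0.51 to 0.61, with 5 of 18 over 0.1, and for 4 of 18 libraries the closest one in another group bore the same number. The r of Slc5a1 and Fabp1 lost its call without control 5 and irradiated 5 together (-0.55) and within the formula group (-0.49). With 1 library left out it ran from -0.78 to -0.59, and it missed the threshold without control 5 (adjusted p = 0.06) or irradiated 5 (-0.61, adjusted p = 0.051). The order of the libraries by summed level of the 3 uptake genes kept 9 of 18 places by library total and 9 of 18 per kb. Counts of Gata4 and Pdx1 were at most 4 in most libraries, which limits what can be said of their levels there.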
